A study of Mus musculus with 12 samples.

Results

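The 10 marker genes of the liver's sinusoidal endothelial cells, Stab2, Stab1, Lyve1, Clec4g, Oit3, Fcgr2b, Eng, Kdr, Pecam1 and Gpr182, were followed in the livers of 12 mice. They were chosen by name as genes known to mark these cells, with earlier results of these data known. Each was read from a probe set of the array that names this gene alone. All 10 had such a probe set, exactly 1 each, out of 30063 genes named in this way, and all 10 were among the 19985 genes bright enough to be tested. All mice, controls included, had the background C57BL/6J -Oca2p-un/J (the pink-eyed unstable form of Oca2, a pigment gene) and an age of 3 months. The 4 control mice received water only. Silver nanoparticles (AgNPs) of 20 nm with a citrate coat (cit-AgNP) were given by gavage to 4 mice, and particles of the same size with a coat of polyvinylpyrrolidone (PVP-AgNP) to 4 others, at 4 mg of silver per kg each day for 7 days. Each group held 2 females and 2 males, the livers were taken 24 h after the last dose, and RNA of whole liver from each mouse was put on 1 array. Nothing in the labels says that livers were pooled or that cells were sorted.

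Sinusoidal endothelial cells line the capillaries between plates of hepatocytes. They have open pores and little basement membrane, and they clear particles, hyaluronan, collagen fragments and immune complexes from portal blood, which makes them, with the Kupffer cells, a main site where blood-borne nanoparticles are taken up. Stab2 and Stab1 encode the stabilins, large scavenger receptors; Lyve1 encodes a hyaluronan receptor shared with lymphatic vessels; Clec4g encodes a C-type lectin; and Fcgr2b encodes the inhibitory receptor for immunoglobulin G that takes up immune complexes. Eng (endoglin) is a co-receptor for BMP9, Kdr is the main receptor for vascular endothelial growth factor (VEGF), Pecam1 is an adhesion molecule of cell junctions, Gpr182 encodes a chemokine-binding receptor, and Oit3 encodes a secreted zona pellucida domain protein. Several of the 10 are not restricted to these cells: Pecam1, Eng and Kdr mark blood vessels in general, and Stab1, Lyve1 and Fcgr2b are also made by macrophages or other leukocytes.

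Windows from 250 bases before to 50 bases after the gene start were held for 6 of the 10 genes in a RefSeq table of the GRCm38.p6 build. The windows of Eng (chr2:32646345-32646644, plus strand), Kdr (chr5:75978406-75978705, minus strand), Stab2 (chr10:87007893-87008192, minus strand) and Fcgr2b (chr1:170976022-170976321, minus strand) are printed 5′ to 3′ on the gene's own strand, because Stab2, Fcgr2b and Kdr varied together between livers and Eng was lower in each PVP-treated than in each water liver. Capitals mark AGGAA on either strand (TTCCT on the other), a form of the letters bound by ETS factors, which are known regulators of endothelial genes. Other forms were neither searched nor marked.
Eng: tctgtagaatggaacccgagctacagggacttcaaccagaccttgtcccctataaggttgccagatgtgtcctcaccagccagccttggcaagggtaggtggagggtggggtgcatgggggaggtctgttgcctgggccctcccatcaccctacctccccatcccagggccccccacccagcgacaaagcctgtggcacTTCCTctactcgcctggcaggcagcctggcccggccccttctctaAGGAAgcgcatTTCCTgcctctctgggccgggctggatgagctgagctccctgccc
Kdr: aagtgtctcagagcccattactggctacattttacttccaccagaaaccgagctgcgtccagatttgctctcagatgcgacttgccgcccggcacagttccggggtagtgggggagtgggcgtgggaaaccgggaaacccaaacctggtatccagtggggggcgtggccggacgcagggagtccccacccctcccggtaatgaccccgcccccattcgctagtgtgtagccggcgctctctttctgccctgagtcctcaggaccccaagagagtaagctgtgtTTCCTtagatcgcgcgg
Stab2: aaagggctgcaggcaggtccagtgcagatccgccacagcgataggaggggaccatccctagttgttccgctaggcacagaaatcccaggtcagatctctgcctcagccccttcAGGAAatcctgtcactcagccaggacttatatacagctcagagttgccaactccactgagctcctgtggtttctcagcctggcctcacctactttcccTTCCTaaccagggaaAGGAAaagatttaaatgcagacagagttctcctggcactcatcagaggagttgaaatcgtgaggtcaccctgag
Fcgr2b: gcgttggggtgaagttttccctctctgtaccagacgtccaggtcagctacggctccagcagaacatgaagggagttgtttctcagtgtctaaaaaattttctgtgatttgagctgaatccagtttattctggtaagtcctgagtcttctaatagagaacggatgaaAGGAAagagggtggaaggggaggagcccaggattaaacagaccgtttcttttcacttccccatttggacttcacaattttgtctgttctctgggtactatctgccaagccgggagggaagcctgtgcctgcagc
AGGAA was found in 6 of the 6 windows and in 66.7% of the 32851 windows of the table, so its presence is common. Eng and Stab2 each had 3 matches, and Kdr and Fcgr2b each had 1. The letters AGATAA, a form of those read by GATA factors, were in 0 of the 6 windows and in 11.2% of all windows. Other forms were not searched, so the 0 holds for these letters alone. CACCC, read by Krüppel-like factors, was in 6 of the 6 and in 57.5% of all. All motifs were searched on both strands. A match is a run of letters and not a measured binding site.

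The values are log2 signals, so a difference of 1 is a doubling. Differences were tested with limma on all 12 arrays with sex in the model, and the adjusted p is that of Benjamini and Hochberg for the 19985 genes, with a threshold of 0.05; the number of arrays limits the precision. As a check of the label, each signal was set against the 5222 intron control probe sets of the same array, which stand for background. Stab2, Clec4g, Eng and Kdr lay above at least 95.4% of them in every liver, Oit3 and Fcgr2b above at least 90.7%, and Stab1 and Pecam1 above 84.7% to 91.6% and 77.8% to 89.9%. Lyve1 lay above 74.9% to 96.8%. Gpr182 was the dimmest against this background, above 56.8% to 80.1%. PVP replicates 1 and 4 were the 2 arrays of lowest quality, measured by the area under the curve that separates exon from intron controls. This area was 0.778 and 0.794 on them, against 0.804 to 0.842 on the other 10 arrays. Replicate 4 was close to the next array, water replicate 2 at 0.804. The fold changes of all 10 markers between PVP and water, and some of the correlations and pair differences, are given with and without them. The counts of pairs were not repeated without them.

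The comparison of PVP-AgNP with water asked what this coating does to the endothelial markers. Oit3, Eng and Gpr182 were lower in each of the 4 PVP-treated livers than in each of the 4 water livers, Pecam1 was lower with a slight overlap, and Stab2 and Fcgr2b stood at about the level of the water livers. None of the 10 passed the threshold over all genes, 0 of 10 where 0.04% of all genes passed. At an unadjusted p under 0.05, 4 of 10 were lower and 0 higher, where 12.2% of all genes were lower and 8.05% higher. The median log2 fold change of the 10 was -0.33, against -0.0023 for all genes tested. In whole liver, fewer endothelial cells and less of an mRNA per cell cannot be told apart.

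Oit3 had log2 signals of 8.31, 8.33, 8.50 and 8.61 in water replicates 1 to 4 and of 7.35, 7.88, 7.89 and 7.68 in PVP replicates 1 to 4. All PVP-treated livers lay below all water livers, and PVP replicate 1 was the lowest. The log2 fold change was -0.74 (SE 0.19, limma adjusted p = 0.125), which did not pass. Eng had 9.38, 9.33, 9.60 and 9.84 in water replicates 1 to 4 and 8.60, 9.21, 8.83 and 8.71 in PVP replicates 1 to 4, again without overlap. Its log2 fold change was -0.70 (SE 0.17, limma adjusted p = 0.114). Endoglin works as a co-receptor on the endothelial surface, and here only its mRNA was measured. Gpr182 had 5.71, 5.68, 5.97 and 6.03 in water livers and 5.31, 5.35, 5.23 and 5.20 in PVP-treated livers, replicates 1 to 4 each. The groups did not overlap, and the difference of their means was larger than the SD of either (0.18 with water, 0.072 with PVP). Its log2 fold change of -0.58 (SE 0.11) had the smallest adjusted p of the 10, 0.0683 in limma, which did not pass. Of all genes, 4.92% lay lower in each PVP-treated than in each water liver, as these 3 of 10 did.

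Pecam1, the junctional adhesion molecule, had 6.45, 6.69, 6.77 and 6.85 in water replicates 1 to 4 and 6.21, 6.52, 6.29 and 6.32 in PVP replicates 1 to 4. The groups overlapped through water replicate 1 and PVP replicate 2. The log2 fold change was -0.35 (SE 0.098, limma adjusted p = 0.134). The VEGF receptor Kdr had 9.98, 9.81, 9.97 and 10.08 in water livers and 9.39, 10.002, 9.69 and 9.51 in PVP-treated livers. Only PVP replicate 2 reached the water range, and the log2 fold change was -0.31 (SE 0.16, limma adjusted p = 0.29).

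Among the scavenger receptors and lectins the groups overlapped in all 5 genes. Stab2 had 9.28, 9.15, 9.18 and 9.26 in water replicates 1 to 4 and 8.95, 9.67, 9.39 and 9.002 in PVP replicates 1 to 4. The PVP-treated livers lay on both sides of the narrow water range, and the log2 fold change was 0.038 with a 95% confidence interval of -0.37 to 0.44. Stab1 had 6.79, 6.94, 7.02 and 7.09 in water livers and 6.64, 7.02, 6.79 and 6.99 in PVP-treated livers, a log2 fold change of -0.10 with an interval of -0.33 to 0.13. Fcgr2b had 8.42, 7.93, 7.71 and 8.49 in water livers and 7.97, 8.76, 8.38 and 7.70 in PVP-treated livers. These groups overlapped almost fully, with a log2 fold change of 0.066 and an interval of -0.54 to 0.67. Clec4g had 9.70, 9.45, 9.58 and 10.13 in water livers and 9.12, 10.26, 9.58 and 9.05 in PVP-treated livers, with a log2 fold change of -0.22 (SE 0.28). Its sign turned to 0.20 without PVP replicates 1 and 4. Lyve1 was the most variable of the 10, with 6.36, 8.13, 8.63 and 6.51 in water livers and 6.78, 6.60, 6.04 and 7.51 in PVP-treated livers. Its log2 fold change of -0.67 had an SE of 0.56, so the difference was about as large as its error, and it ran from -1.18 to -0.29 with single arrays left out.

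**Figure D1:**
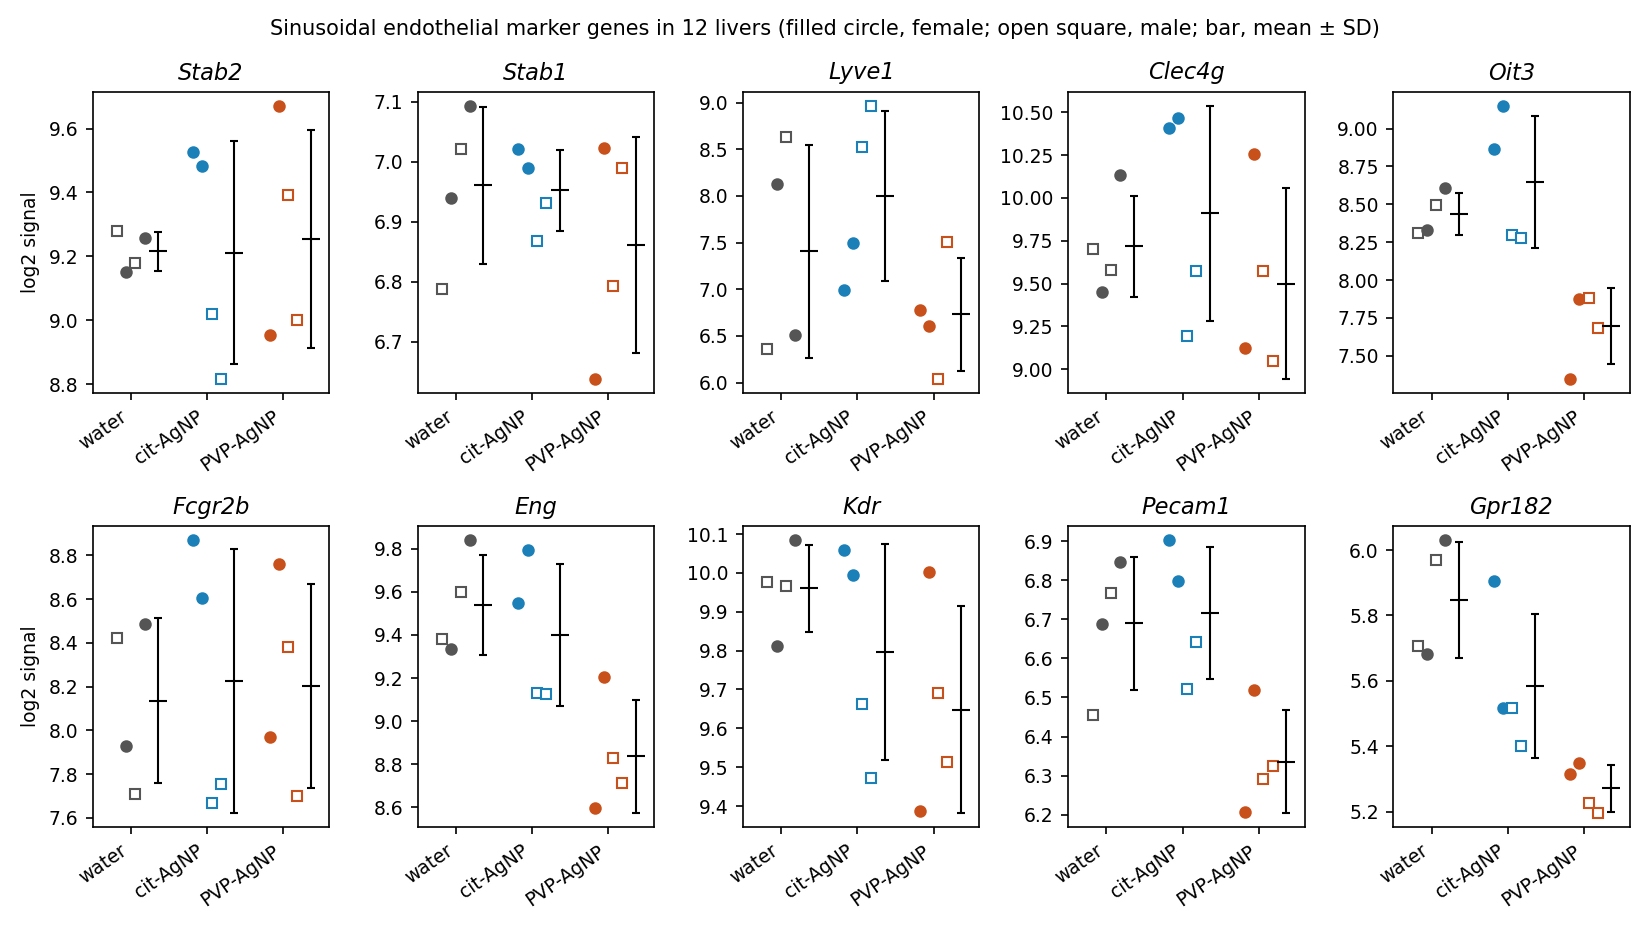
Log2 signal (vertical axis, a scale of its own for each gene) of the 10 marker genes in the livers of 4 mice each given water, cit-AgNP or PVP-AgNP; filled circles are females, open squares males, and bars the mean ± SD. Oit3, Eng and Gpr182 show PVP-treated livers wholly below the water livers, while Stab2 and Fcgr2b overlap, and Lyve1 runs from 6.04 to 8.97 over the 12 livers.

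The 2 arrays of lowest quality mattered for the size of these differences. With this area added to the model, the log2 fold change with PVP was -0.46 for Oit3, -0.41 for Eng, -0.50 for Gpr182 and -0.058 for Kdr. Without PVP replicates 1 and 4 the values were -0.56, -0.52, -0.56 and -0.11 in the same order. Those of Pecam1, Stab1 and Lyve1 were then -0.28, -0.053 and -1.08, and those of Stab2, Fcgr2b and Clec4g were 0.32, 0.43 and 0.20. Kdr was at -0.18 without PVP replicate 1 alone. The direction of Oit3, Eng, Pecam1 and Gpr182 stayed negative in every alternative run, with adjusted p-values from 0.0527 to 0.468 over the 4 genes and all alternatives. The part of array quality in the result was not tested beyond these fits.

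Cit-AgNP left the markers closer to water on average, but not more uniform. Of the 10 genes, 5 lay above 0 and 5 below (50.1% of all genes lay above), with a median log2 fold change of 0.011, and 0 of 10 passed the threshold (0.005% of all genes passed). At an unadjusted p under 0.05 there was 1 of 10, lower, where 3.82% of all genes were lower. That gene was Gpr182, which had 5.90, 5.52, 5.52 and 5.40 in citrate replicates 1 to 4 and differed from water by -0.26 (SE 0.11, limma adjusted p = 0.704). None of the 10 lay lower in each citrate-treated than in each water liver, 0 of 10 against 2.37% of all genes. The citrate values of Gpr182 lay between those of the other groups and overlapped the water range. Oit3 had 8.86, 9.15, 8.29 and 8.27 in citrate replicates 1 to 4, a log2 fold change of 0.21 (SE 0.19) that was 0.059 without citrate replicate 2. Both citrate-treated females lay above all water livers and both males just below them. The stabilins had log2 fold changes of -0.0051 for Stab2 and -0.0083 for Stab1, and the sign of the latter turned after quantile normalization (0.0027). Their intervals ran from -0.41 to 0.40 and from -0.23 to 0.22. Stab1 itself had 7.02, 6.99, 6.87 and 6.93 in citrate replicates 1 to 4. Eng had 9.55, 9.79, 9.13 and 9.13 and a difference of -0.14 (SE 0.17), from -0.26 to -0.068 with single arrays left out. Kdr had 10.06, 9.99, 9.66 and 9.47 and a difference of -0.16 (SE 0.16; -0.074 without citrate replicate 4), and Pecam1 had 6.90, 6.80, 6.52 and 6.64 and a difference of 0.027 (SE 0.098). For Eng, Kdr and Pecam1 the first 2 of these mice, the females, were above the others. Lyve1 had 6.99, 7.496, 8.53 and 8.97, with a log2 fold change of 0.59 (SE 0.56) that was 0.087 without water replicate 1.

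**Figure D2:**
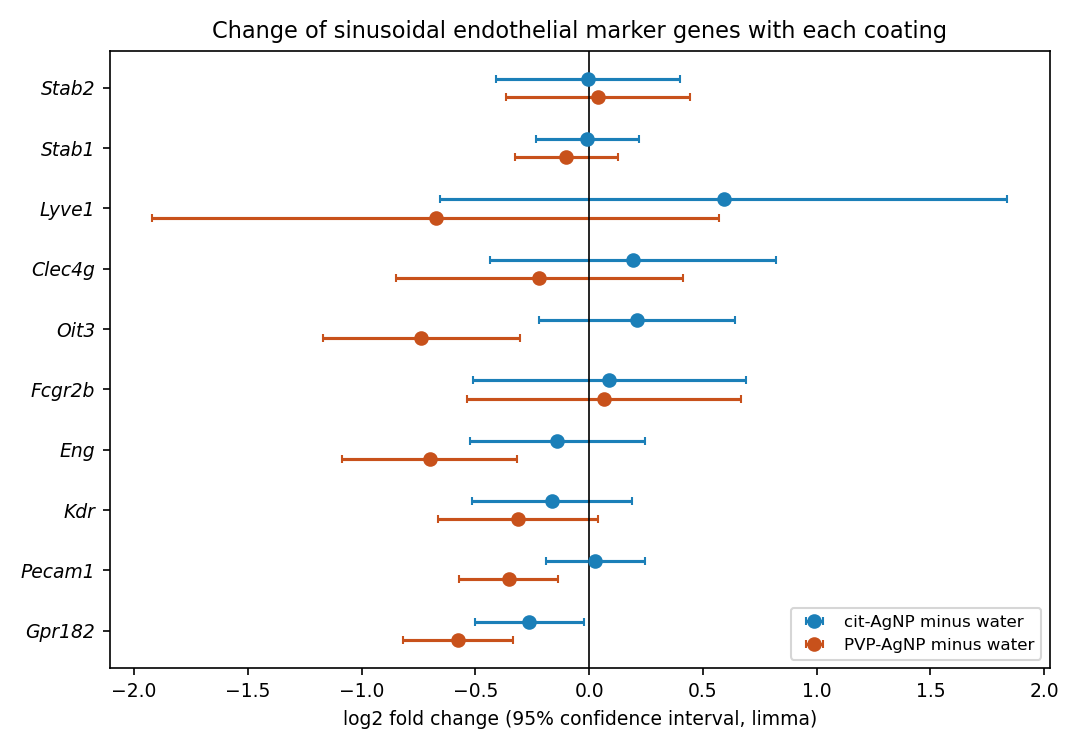
Log2 fold change of each marker gene (horizontal axis) for cit-AgNP and PVP-AgNP against the same 4 water mice, with points for the estimate and bars for the 95% confidence interval of the limma fit. With PVP-AgNP the intervals of Oit3, Eng, Pecam1 and Gpr182 lie below 0, and with cit-AgNP that of Gpr182 does; no gene passed the adjusted threshold.

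The coatings were also compared with each other, which does not use the water mice for the difference. Oit3 had the largest gap in units of its error: PVP minus citrate was -0.95 (SE 0.19, adjusted p = 0.212 in limma), and each PVP-treated liver lay below each citrate-treated liver. Pecam1 and Gpr182 also did not overlap between the coatings, with differences of -0.38 (SE 0.098, adjusted p = 0.247) and -0.31 (SE 0.11, adjusted p = 0.307). Of all genes, 4.84% lay lower in each PVP-treated than in each citrate-treated liver, against 3 of the 10. Without PVP replicates 1 and 4 the differences of Oit3, Pecam1 and Gpr182 were -0.77, -0.31 and -0.30. Eng differed by -0.56 (SE 0.17, adjusted p = 0.272) and Lyve1 by -1.26 (SE 0.56, adjusted p = 0.354), both with overlap. With the array area in the model the difference of Eng was -0.32. Eng overlapped between the groups, but within each sex the PVP-treated livers lay below the citrate-treated livers. Stab2 differed by 0.043, Stab1 by -0.092, Kdr by -0.15, Clec4g by -0.41 and Fcgr2b by -0.023. Without the same 2 arrays these were 0.32, -0.045, 0.049, 0.0048 and 0.34, and the sign of Fcgr2b turned after quantile normalization (0.0042). At an unadjusted p under 0.05, 5 of 10 were lower with PVP and 0 higher, where 8.72% of all genes were lower and 5.29% higher. None of the 10 passed over all genes, and 0% of all genes did in limma (2800 genes, or 14%, at an unadjusted p under 0.05).

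The difference between 2 markers within a liver does not depend on the total signal of its array. The log2 signal of Stab2 minus that of Oit3 was 0.65 to 0.97 in water livers, 0.33 to 0.73 in citrate-treated livers and 1.32 to 1.79 in PVP-treated livers, with means of 0.78 ± 0.14, 0.57 ± 0.17 and 1.56 ± 0.20 (SD, n = 4 each). Stab2 minus Eng was -0.58 to -0.10 in water livers, -0.31 to -0.020 in citrate-treated livers and 0.29 to 0.56 in PVP-treated livers. The PVP range of both quantities lay clear of the other groups. In PVP replicates 2 and 3, the arrays of higher quality, Stab2 minus Oit3 was 1.79 and 1.51 and Stab2 minus Eng was 0.47 and 0.56. Eng minus Kdr was -0.86 to -0.79 in PVP-treated livers and -0.60 to -0.24 in water livers, so Eng was lower relative to Kdr as well. Of the 45 pairs that the 10 genes form, 12 had differences that did not overlap between PVP-AgNP and water, 13 between PVP-AgNP and cit-AgNP, and 4 between cit-AgNP and water. Over all 199690120 pairs of tested genes these shares were 7.85%, 7.28% and 4.3%. The pairs share genes and are not independent. These differences show unequal change between genes, not which gene of a pair moved, and they were looked at after the levels had been seen.

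Across the 12 livers, many of the markers went up and down together. Of the 45 pairs, r was above 0 in 41 and below 0 in 4. At an adjusted permutation p under 0.05, 22 pairs passed by Pearson r and 17 by both Pearson r and Spearman rho. The share of all pairs of tested genes with such an r was not computed, so these counts have no background beside them. The permutations shuffled the arrays over groups and sexes. The largest r were 0.911 for Eng and Pecam1, 0.908 for Oit3 and Eng and 0.896 for Oit3 and Pecam1. Without PVP replicates 1 and 4 these were 0.843, 0.825 and 0.814. After the mean of each group was removed they were 0.818, 0.896 and 0.725 in the same order. With sex removed as well they were 0.737, 0.882 and 0.663. Stab2 and Fcgr2b had a Pearson r of 0.883 (permutation p = 0.00021, adjusted 0.00236) and a Spearman rho of 0.811 (permutation p = 0.00247, adjusted 0.0111), adjusted over 45 pairs. The correlation was 0.877 without the 2 livers farthest from the median of Stab2 and 0.888 after the mean of each group was removed. Clec4g and Fcgr2b had r = 0.867 (permutation p = 0.00051, adjusted 0.00383) and rho = 0.839 (permutation p = 0.0013, adjusted 0.00731), with r = 0.809 without the 2 farthest livers, 0.933 within the 6 females and 0.619 within the 6 males. Stab2 and Kdr had r = 0.781 (permutation p = 0.00361, adjusted 0.0135) and rho = 0.825 (permutation p = 0.00152, adjusted 0.0076), with r = 0.742 without the 2 farthest livers and 0.968 after the group means were removed. The rise of r shows that Stab2 and Kdr kept step within each group while their offset differed between groups. The same 12 arrays underlie all pairs, so array quality and sex are shared by both genes of a pair. Within the 6 females and the 6 males, r was 0.784 and 0.672 for Stab2 and Kdr and 0.907 and 0.783 for Stab2 and Fcgr2b. Without PVP replicates 1 and 4, a check added after seeing the data, r was 0.88 for Stab2 and Fcgr2b, 0.868 for Clec4g and Fcgr2b and 0.721 for Stab2 and Kdr.

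Lyve1 ran against Fcgr2b most clearly. Over all livers its r was below 0 with 4 of the other 9 and above 0 with 5. After the mean of each group was removed, r was below 0 with all but Stab1 (0.078). It was then -0.64 with Stab2 and Clec4g, -0.61 with Kdr, -0.50 with Oit3, -0.47 with Eng, -0.38 with Gpr182 and -0.16 with Pecam1. With sex removed as well, r with Pecam1 was 0.072. Against Fcgr2b, Lyve1 had r = -0.707 (permutation p = 0.014, adjusted 0.0351) and rho = -0.622 (permutation p = 0.0343, adjusted 0.0701), with r = -0.598 without the 2 livers farthest from the median of Lyve1. The value was -0.806 without PVP replicates 1 and 4, -0.86 after the group means were removed, -0.436 within the 6 females and -0.898 within the 6 males. In the water group, replicates 1 and 4 had low Lyve1 (6.36 and 6.51) and high Fcgr2b (8.42 and 8.49), and replicates 2 and 3 had high Lyve1 (8.13 and 8.63) and low Fcgr2b (7.93 and 7.71). Each of these pairs of mice held 1 male and 1 female.

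**Figure D3:**
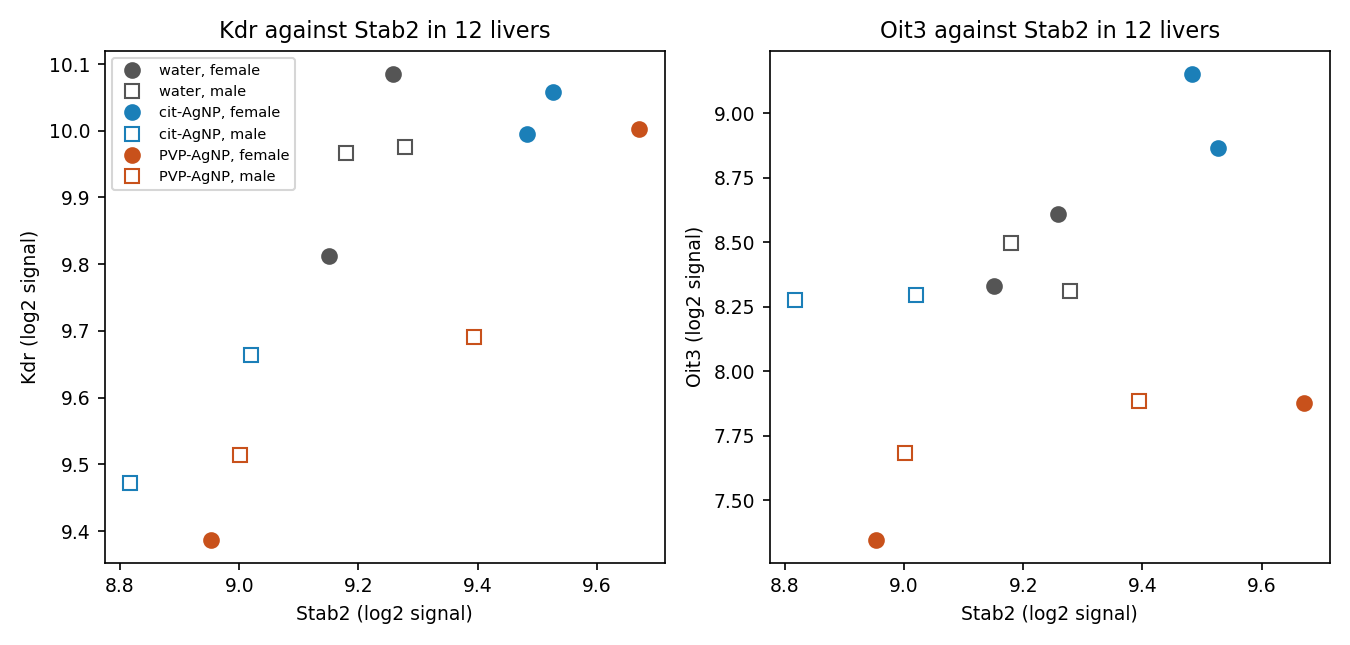
Log2 signals of Kdr (left) and Oit3 (right) against Stab2 in the 12 livers, coloured by group, with filled circles for females and open squares for males. Kdr follows Stab2 with r = 0.781 over all livers, and in the right panel the 4 PVP-treated livers lie lower in Oit3 than the other 8 at any level of Stab2.

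Sex was part of the pattern. Of the 10 genes, 9 were higher in females than in males, with a median log2 difference of 0.19 against -0.024 for all genes tested, and 42.7% of all genes were higher in females. None passed the threshold, 0 of 10, where 2.18% of all genes did. Clec4g ran from 9.12 to 10.47 in the 6 females, with a median of 10.20, and from 9.05 to 9.70 in the 6 males, with a median of 9.57; its female minus male difference was 0.53 (SE 0.23, limma adjusted p = 0.312). It passed only once the area of each array was added to the model (0.50, adjusted p = 0.0377). At an unadjusted p under 0.05, 2 of 10 were higher in females, where 6.36% of all genes were. Fcgr2b, the other of these, had medians of 8.55 in females and 7.73 in males and a difference of 0.50 (SE 0.22, adjusted p = 0.318). Lyve1 alone had a negative difference, -0.59 (SE 0.46, adjusted p = 0.607). Other lists lay higher in females as well: 10 of 10 Kupffer markers (median 0.72, 7 at an unadjusted p under 0.05), 6 of 6 neutrophil and monocyte markers (median 0.69), 20 of 24 other sinusoidal genes (median 0.31) and 17 of 21 scavenging and Fc receptor partners (median 0.32). Their part in the sex difference of Fcgr2b and the other markers was not tested.

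The mice given cit-AgNP showed the widest gap between the sexes. Set against the mean of the 4 water livers, 9 of the 10 genes were above it in each citrate-treated female. In each citrate-treated male 1 of the 10 was. Median deviations were 0.16 and 0.18 in these females and -0.25 and -0.27 in these males. Water replicates 1 to 4 (male, female, male, female) had 3, 1, 7 and 9 of the 10 above the same mean. The water livers thus also ran from 1 to 9, and the share of all genes above the mean in each liver was not counted. With citrate, Stab2 was 9.53 and 9.48 in the females and 9.02 and 8.82 in the males. Clec4g was 10.41 and 10.47 in the females against 9.19 and 9.57 in the males, and Fcgr2b was 8.87 and 8.61 against 7.67 and 7.75. The effect of citrate in females minus that in males was 0.61 (SE 0.34) for Stab2, 0.90 (SE 0.54) for Clec4g, 0.88 (SE 0.51) for Fcgr2b and 0.66 (SE 0.29) for Oit3. The difference was above 0 for 8 of 10 genes, where 49.4% of all genes were above 0. Each of those named had a limma adjusted p of 1, and 0 of 10 had an unadjusted p under 0.05 (2.45% of all genes had, and 0% passed the threshold). With 2 mice per sex in a group, a difference in response between the sexes is poorly resolved. With PVP-AgNP, 0, 5, 2 and 2 of the 10 genes were above the water mean in replicates 1 to 4, of which the first 2 were females. The effect of PVP in females minus that in males was above 0 for 7 of 10 genes (46.9% of all genes), and 0 of 10 passed, as did 0% of all genes, with 0 of 10 at an unadjusted p under 0.05 (3.62% of all genes). Within females alone, 8 of 10 genes were below 0 with PVP (51.8% of all genes), and within males 10 of 10 were (50.4%). Oit3 had -0.86 in females and -0.62 in males, Eng -0.68 and -0.72, and Gpr182 -0.53 and -0.63.

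**Figure D4:**
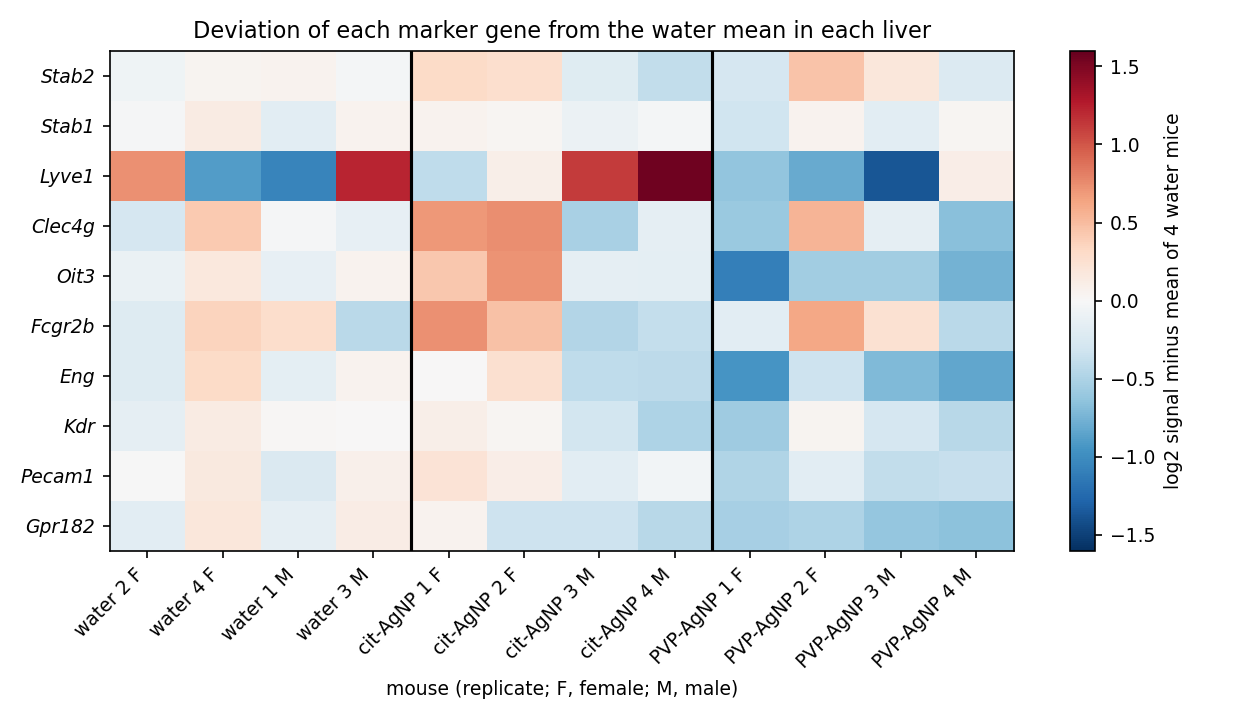
Log2 signal of each marker gene (rows) in each of the 12 livers (columns, ordered by group and sex) minus the mean of the 4 water livers; red is above that mean and blue below. The citrate-treated females are above in 9 of 10 genes and the males in 1. Water replicates 1 to 4 are above in 3, 1, 7 and 9. PVP replicate 1 is below in all 10, and Lyve1 departs from the other rows.

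Other genes of the same cells, taken from a list that holds none of the 10, were lower with PVP in a similar share. Of 25 genes known from sinusoidal endothelium 24 were tested, and 20 were below 0 with PVP and 4 above, where 50.5% of all genes were below 0; the median log2 fold change was -0.22. At an unadjusted p under 0.05 there were 7 lower and 0 higher, where 12.2% of all genes were lower and 8.05% higher. In this list 0 passed over all genes. The mean log2 signal of the 24 overlapped between groups, at 7.52 to 8.10 in water livers and 7.29 to 7.84 with PVP. Gata4, the transcription factor that keeps the sinusoidal identity of these cells, was dim but tight: its mean was 5.44 ± 0.050 in water livers, 5.25 ± 0.043 with citrate and 5.17 ± 0.028 with PVP (SD, n = 4 each). Each treated liver of either coating lay below each water liver, where 4.92% of all genes did so with PVP and 2.37% with citrate. Its log2 fold change was -0.27 (SE 0.047, limma adjusted p = 0.0623) with PVP and -0.19 (SE 0.047, adjusted p = 0.373) with citrate, and it passed with PVP only with a filter at the 60th percentile (adjusted p = 0.0437). Ehd3, an endocytic recycling protein, had -1.14 (SE 0.38, adjusted p = 0.168) with PVP, with overlap; this was -0.47 with the array area in the model and -0.73 without water replicate 4. Ptprb, the vascular endothelial phosphatase, went from 10.64 ± 0.15 to 10.08 ± 0.35 without overlap, and its difference was -0.56 (SE 0.20, adjusted p = 0.182). That of Ptprb shrank to -0.23 with the array area in the model, -0.28 without PVP replicates 1 and 4 and -0.36 without PVP replicate 1 alone. With citrate, 15 of the 24 were above 0 and 9 below, with a median of 0.09, where 50.1% of all genes were above 0. Flt4 had 0.21 (SE 0.11) and Wnt2 0.18 (SE 0.11), or 0.096 for Wnt2 without water replicate 2.

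Partners of the markers in signalling were read from lists. Of all genes, 50.5% were below 0 with PVP and 50.1% above 0 with citrate. For BMP9 and TGF-beta signalling, in which endoglin acts, 23 of 24 genes were tested; with PVP 18 were below 0 and 4 above, with a median of -0.14. The receptor gene Acvrl1 had 0.13 (SE 0.053, adjusted p = 0.209) and Bmpr2 -0.47 (SE 0.21, adjusted p = 0.234). Acvrl1 was at 0.032 after quantile normalization, and Bmpr2 at -0.082 with the array area in the model, -0.21 without PVP replicates 1 and 4 and -0.30 without PVP replicate 1. With citrate 13 were below 0 and 9 above, with a median of -0.051, and the inhibitory Smad6 and the target genes Id2 and Id3 had the smallest p. Their log2 fold changes were -0.38 (SE 0.078), -1.58 (SE 0.40) and -0.39 (SE 0.13), with limma adjusted p-values of 0.257, 0.384 and 0.567. In all 3 each citrate-treated liver lay below each water liver, where 2.37% of all genes did so. These 3 were named for their small p. For VEGF signalling around Kdr, 20 of 23 genes were tested, with 15 below 0 and 5 above with PVP. Notch1, a receptor that acts downstream of VEGF in vessels, had -0.27 (SE 0.061, adjusted p = 0.0967) with PVP and -0.25 (SE 0.061, adjusted p = 0.334) with citrate, and the orphan receptor Tie1 had -0.22 (SE 0.078, adjusted p = 0.185) with PVP. Of 24 scavenging, stabilin and Fc receptor partners 21 were tested, with 11 above 0 and 10 below with either coating; Gga1, a sorting adaptor that binds stabilin-1, had -0.43 (SE 0.16, adjusted p = 0.186) with PVP and Scarb1, a lipoprotein receptor, -0.39 (SE 0.17, adjusted p = 0.232). Both were smaller without water replicate 4 (-0.25 and -0.24) and with the array area in the model (-0.22 and -0.25). In each of these lists 0 genes passed over all genes with either coating.

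Markers of other endothelium and of other liver cells were read beside them. Of all genes, 50.5% were below 0 with PVP and 50.1% above 0 with citrate. With PVP, 4.92% of all genes lay lower in each treated than in each water liver. Of 13 genes of vascular and capillarised endothelium 9 were tested, with 5 above 0 and 4 below with PVP and a median of 0.015; Emcn had -0.23 (SE 0.098, adjusted p = 0.226), with each PVP-treated liver below each water liver, and -0.15 without water replicate 3. The mean log2 signal of the 9 was 5.08 to 5.39 in water livers and 5.09 to 5.27 with PVP. Kupffer cell markers, of which 10 of 10 were tested, were above 0 in 10 of 10 genes with either coating, with medians of 0.37 with PVP and 0.43 with citrate. Their mean log2 signal was 7.74 to 8.87 in water livers, 7.94 to 9.19 with citrate and 7.88 to 9.97 with PVP, and Cd5l had 1.3603 (SE 0.45, adjusted p = 0.168) with PVP, or 0.90 without PVP replicate 2. Stellate cell markers, 11 of 11 tested, were below 0 in 11 with PVP and in 10 with citrate, with medians of -0.25 and -0.20. Their mean signal was 6.91 to 7.28 in water livers, 6.86 to 7.06 with citrate and 6.50 to 6.95 with PVP, and Reln had -0.83 (SE 0.16, adjusted p = 0.071) with PVP, without overlap. The neutrophil and monocyte list had 6 of 8 tested, with Mpo and Elane under the signal filter; with PVP 4 were above 0 and 2 below, with a median of 0.26, and S100a8 had 2.10 (SE 0.74, adjusted p = 0.182). Hepatocyte markers, 7 of 8 tested, had a mean signal of 17.57 to 17.80 over all livers, near the ceiling of the scale, while cholangiocyte (4 of 6 tested, 4.43 to 5.01) and lymphocyte markers (7 of 8 tested, 4.02 to 4.58) were near the filter. The part of these other cells in the signals of Stab1, Lyve1, Fcgr2b and Pecam1 was not tested.

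**Figure D5:**
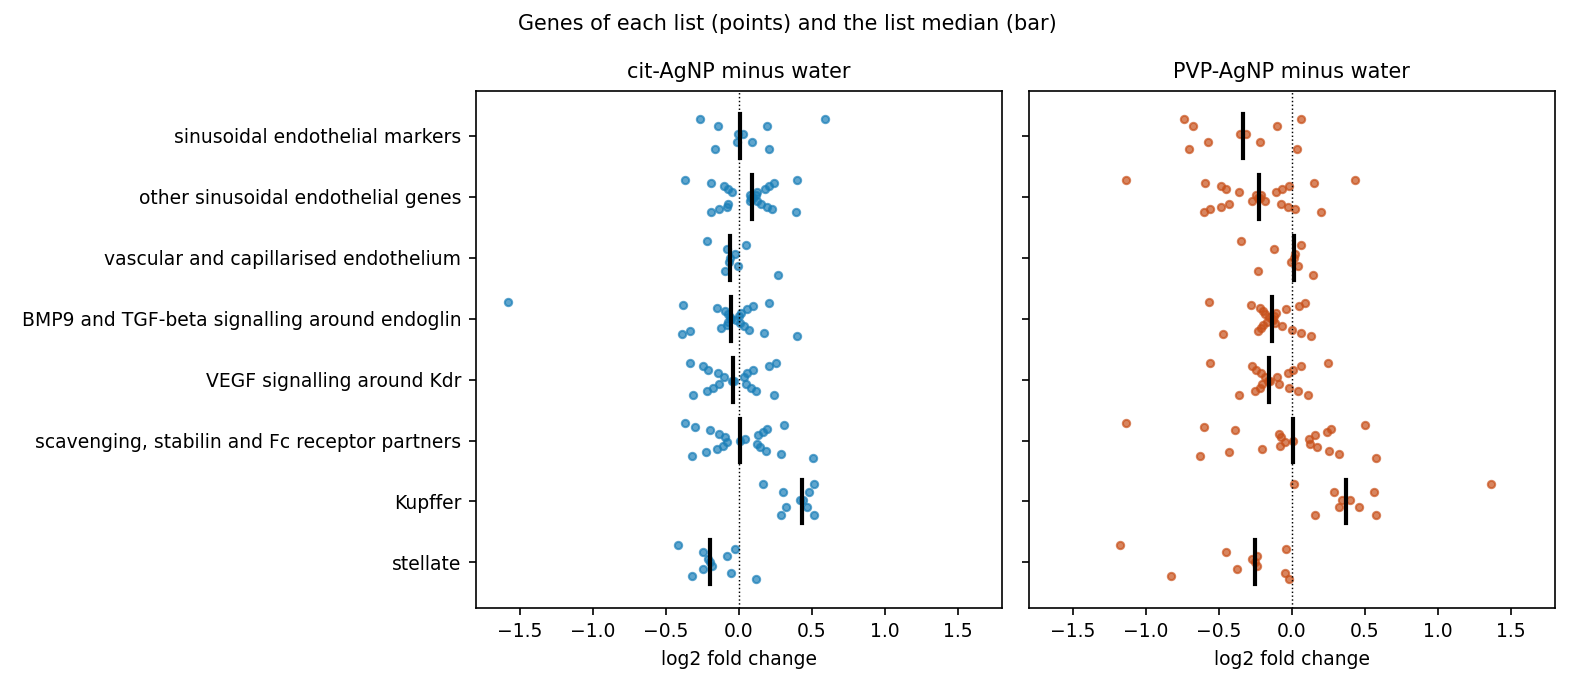
Log2 fold change (horizontal axis) of every tested gene of 8 lists (points) with cit-AgNP (left) and PVP-AgNP (right) against water, with a bar at each list's median. With PVP-AgNP the medians of the 10 markers (-0.33), of the other sinusoidal genes (-0.22) and of stellate markers (-0.25) lie below 0 and that of Kupffer markers (0.37) above.

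The genes whose signal followed the 10 markers most closely over the 12 arrays were found by ranking 19938 genes on their Pearson r with the mean of the standardised marker signals, as a description without a test. Ptprb ranked highest with r = 0.972, and the next were Prdx3, a mitochondrial peroxiredoxin, with 0.955, the noncoding gene Gm26588 with 0.95, Jmjd8 with 0.943 and Haus2, a part of the augmin complex, with 0.939. All points share the arrays, their quality and the sexes of the mice. Of the other sinusoidal genes, the adhesion receptor gene Adgrl4 followed at rank 6 with r = 0.938, Adgrf5 at rank 81 with 0.889 and Cdh5, the endothelial cadherin, at rank 152 with 0.87. Gata4 and Tie1 followed loosely, at ranks 5104 and 6252 with r = 0.409 and 0.312. At the other end, the angiocrine Wnt2 and Wnt9b had r = 0.0073 and -0.292.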

How the data were processed

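Total RNA of whole liver was hybridised to Affymetrix whole-transcript arrays, 1 per mouse, per the labels' protocols. The deposited table of the authors holds log2 signals for 72688 probe sets, and per the submitters' processing notes RMA and the program Transcriptome Analysis Console 4.0.1.36 were used, in an order not given; the genome build behind the signals is not given in the sources used here. Values were used as deposited, from 1.73 to a ceiling of 19.93. Probe sets naming exactly 1 gene in the platform table were kept, that with the highest mean standing for its gene, with 1135 symbols brought up to date from RefSeq. Genes were tested if their mean passed 3.93, which is percentile 40 of the table.

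A single limma 3.58.1 fit (R 4.3.3, trend) with group and sex served the 12 arrays, and 6 means of group by sex gave the differences between the sexes in response. Tests were two-sided. Correlations used 100000 permutations (SciPy 1.17.1). The fits were tested on simulated data. The members and lists were chosen with earlier results of these data known. The genes named were the 10 markers, up to 3 genes of smallest p per list and the 5 genes of most similar pattern; Adgrl4, Adgrf5, Cdh5, Wnt2 and Wnt9b were added from the ranking after their values were seen. Replicates are separate mice. Alternatives covered filter, normalization, spread, array quality, model, replicate block and each array left out. The labels do not say that a replicate number links mice. Deviations of same-numbered mice from their group means correlated at 0.167, 0.455, 0.277 and 0.526 between the coatings, where each pair shares a sex, and at -0.402, -0.075, -0.44 and -0.0152 with sex removed; against water some were negative (down to -0.515). With sex removed none of those between the coatings was positive. Removing sex by itself pulls mice of the same sex in different groups below 0, so these signs cannot decide whether the number links mice. The labels give no link, and the coatings were not taken as paired in the main fit. A fit of the coatings alone with the number as a block was added after seeing the data.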

Additional observations from a re-analysis of the deposited data

How the results depend on the processing

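The number of the 10 markers past the threshold was 0 in every comparison and alternative except 1 (Clec4g) for female against male with the area of each array (exon over intron controls) added as covariate. The number of all genes past it moved more. With citrate it was 1, and 0 with 6 means of group by sex, without the sex term, with the compared groups alone, with the replicate block and without the 2 arrays of lowest area; 2 with medians subtracted, without the trend, with quantile normalization and with robust spread; 4 with the filter at the 60th percentile; 5 with array weights or the area covariate; and 0 to 6 with each array left out. With PVP it was 8, and 0 with 6 means, the compared groups alone, quantile normalization, the replicate block and without the 2 arrays; 2 with the area covariate or without sex, 3 with robust spread, 4 without a filter, 5 with the mean of probe sets, 37 with array weights, 52 without the trend, 85 with the filter at the 60th percentile, and 1 to 61 with each array left out. PVP against citrate had 0, but 1 with 6 means or quantile normalization and 4 with array weights. Female against male had 435, but 860 with array weights, 930 with the area covariate, 56 with the replicate block and 245 to 605 with each array left out. The interactions of sex with citrate and with PVP had 0, and 0 to 2 and 0 to 3 with each array left out. For PVP against citrate, the replicate block with the arrays of these 2 groups alone, added after seeing the data, left 0 markers and 0 genes past the threshold (adjusted p = 0.388 for Oit3, Eng, Pecam1 and Gpr182), as did the block over all arrays; the block changed no call of a marker.

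Signs turned in these cases. With citrate, Stab2 was 0.041 with the area covariate, Stab1 0.0027 with quantile normalization and 0.0081 with the area covariate, and Fcgr2b -0.0083 with array weights. With PVP, Stab1 was 0.00061 and Clec4g 0.33 with the area covariate, and Clec4g 0.20 without the 2 arrays. For PVP against citrate, Clec4g was 0.045 and 0.0048, Fcgr2b 0.37 and 0.34 and Kdr 0.063 and 0.049 with the area covariate and without the 2 arrays, and Fcgr2b 0.0042 with quantile normalization and 0.017 with array weights. For the interaction of sex with citrate, Stab1 was 0.013 with medians subtracted and 0.34 with the replicate block. With each array left out, the citrate values ran from -0.081 to 0.10 for Stab2, -0.063 to 0.032 for Stab1, -0.0054 to 0.36 for Clec4g, -0.083 to 0.29 for Fcgr2b and -0.031 to 0.086 for Pecam1. The PVP values ran from -0.076 to 0.19 for Stab2, -0.42 to 0.022 for Clec4g and -0.11 to 0.27 for Fcgr2b, and those of PVP against citrate from -0.071 to 0.20 for Stab2, -0.15 to 0.00185 for Stab1 and -0.18 to 0.16 for Fcgr2b. The interaction with citrate ran from -0.12 to 0.11 for Stab1 and -0.044 to 0.27 for Pecam1. The cause was not tested. With 4 mice a group, 2 of each sex, small differences and signals near background, such as those of Gpr182, are poorly resolved.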

Other observations

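Prox1, a transcription factor of lymphatic endothelium that hepatocytes also make, stood on opposite sides of water with the coatings. Its mean log2 signal was 11.25 ± 0.36 in water livers, 10.61 ± 0.37 with citrate and 11.86 ± 0.30 with PVP (SD, n = 4 each). The log2 fold change was -0.63 (SE 0.18, limma adjusted p = 0.448) with citrate and 0.62 (SE 0.18, adjusted p = 0.145) with PVP, and neither passed. Of the 4 lymphatic genes listed, Ccl21a and Mmrn1 were under the signal filter and Prox1 and Pdpn were tested.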
